A study of Dugesia japonica with 18 samples.

Results

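The transcriptome of whole planarians on day 5 after X-irradiation was compared with that of unirradiated animals. The comparison takes the 3 libraries of day 5 and the 3 of day 0, out of 18 libraries in 6 groups of 3 (days 0, 0.5, 1, 3, 5 and 7). Of the 25566 gene models in the count table, 17129 had enough reads to be tested, and these are the members described here. The animals were *Dugesia japonica* of a single clonal strain, the sexualizing super planarian (SSP), about 5 mm long and starved beforehand. Day 5 animals had received X-rays at a stated dose of 150 Roentgens. Day 0 animals are given as not irradiated in the design text, whereas the treatment protocol names no exception for them. Both groups were starved, and no unirradiated animals were sampled at day 5, so irradiation, elapsed time and longer starvation cannot be told apart. The sources used here do not say how many animals went into a library.

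Planarians are freshwater flatworms whose tissues are continually renewed from dividing stem cells, the neoblasts, which lie scattered through the body. Neoblasts are the dividing cells of the adult animal and are known to be sensitive to radiation, while differentiated cells do not divide. Progeny of neoblasts pass through intermediate states, best known in the epidermal lineage, before they become mature cells. The measurement here was of whole bodies, so fewer cells of a type and less RNA per cell cannot be told apart.

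The files do not pair gene model IDs with gene names. Marker genes of neoblasts or of any other cell type could therefore not be looked up, and gene models are described by their level, their change and their course. Levels are given in CPM, the counts scaled to a common library size, with scaling factors from the trimmed mean of M values. The reads come from the 3' ends of transcripts, so a CPM value is not divided by transcript length.

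The 6 libraries held from 5814275 to 12605652 counts in gene models, with fewer at day 5 (6665657 ± 737955) than at day 0 (10687272 ± 2575230; SD, n = 3 each). The exact two-sided permutation test gave p = 0.1, the smallest that 3 against 3 libraries allow (adjusted p = 0.15 over 6 library measures). At their full depth, 21006 ± 267 gene models had a read at day 5 and 21812 ± 469 at day 0. With every library thinned to 4679195 counts the numbers were 20416 ± 108 and 20465 ± 57.3 (SD, n = 3 each; exact permutation p = 0.5). Libraries of 1 group stayed close to each other. Over the 4938 gene models with at least 20 CPM on average, the root mean square difference in log2 CPM was 0.188 to 0.191 between day 0 libraries, 0.207 to 0.246 between day 5 libraries, and 0.666 to 0.719 between libraries of different groups.

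At day 5, 6111 gene models differed from day 0, which is 35.7% of those tested (edgeR quasi-likelihood test, Benjamini-Hochberg adjusted p below 0.05). Of these, 3576 fell (20.9% of those tested) and 2535 rose (14.8%). Among the called gene models the falls were the larger changes. The median log2 change was -0.92 among gene models that fell, a 1.9-fold difference, and 0.53 among those that rose, a 1.44-fold difference. These medians mix levels: at a mean of 1 to 5 CPM, with a median standard error of 0.35, 770 fell and 156 rose. At 20 to 100 CPM the medians were -0.63 and 0.46, and at 100 to 500 CPM -0.68 and 0.47. At 500 CPM and over they were -1.1 and 0.53. Over all gene models tested the median was 0.02, with quartiles of -0.44 and 0.33. With library totals in place of the trimmed mean, 49.5% of the calls were falls, against 58.5%, so the excess of falls over rises in the plain count depended on the scaling.

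The difference between the directions grew with the size of the change. At 1.5-fold or more, 2766 gene models fell and 992 rose. At 2-fold or more, 1588 fell (9.27% of those tested) and 143 rose (0.835%). At 4-fold or more, 434 fell (2.53%) and 5 rose (0.0292%), and at 16-fold or more 109 fell and none rose. Of the 4-fold changes, 89 falls and 2 rises had a mean under 1 CPM over the 18 libraries. Another 189 falls and 3 rises lay at 1 to 5 CPM. Calls at these levels were in part shaped by the low-count filter, as described below. At 5 to 20 CPM 88 fell and 0 rose at least 4-fold, and at 20 to 100 CPM 40 and 0. The count of rises of at least 2-fold was 217 with library totals and 87 when at least 30 reads in 3 libraries were required. The count of rises of at least 4-fold was 8, 17 and 13 without day 0 replicates 1, 2 and 3. It was 11, 6 and 7 without day 5 replicates 1, 2 and 3. These fits repeated the low-count filter and tested 17442 to 17524 gene models. With no filter the count was 26, so the part of single libraries cannot be told apart from that of the filter.

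**Figure D1:**
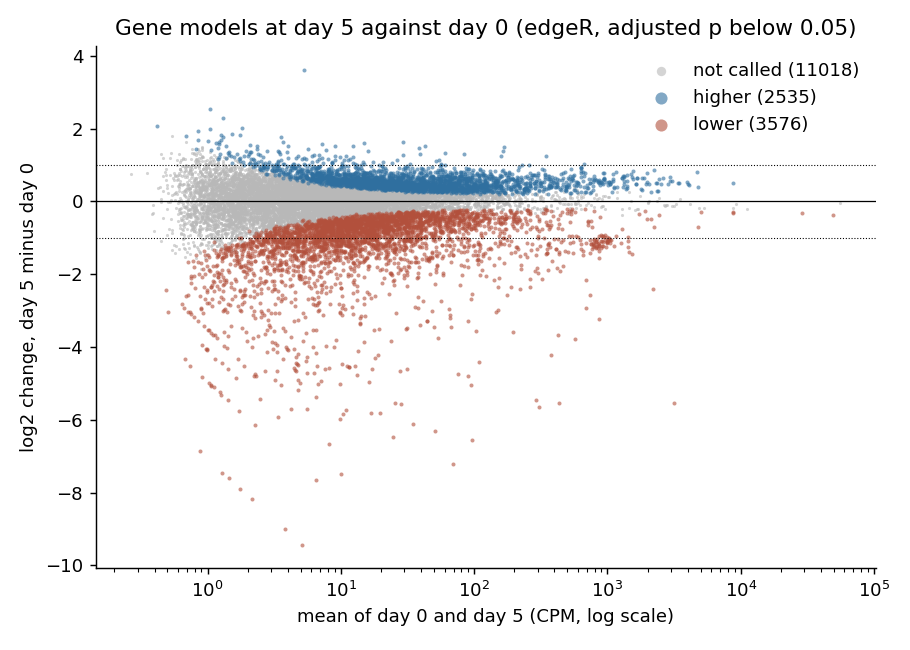
Log2 change from day 0 to day 5 (vertical axis) of each of the 17129 gene models tested against the mean of its day 0 and day 5 levels (horizontal axis, CPM, log scale). Red points are the 3576 gene models called lower, blue points the 2535 called higher and grey points the 11018 not called, and dotted lines mark 2-fold changes. Falls reach a log2 change of -9.43, while rises end at 3.62 and mostly lie between the dotted lines.

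The groups separated for most of the called gene models. All 3 day 5 libraries lay below all 3 day 0 libraries for 3469 of the 3576 gene models that fell (97%). For 2393 of the 2535 that rose (94.4%) all 3 lay above. These gene models were called on the same libraries, so the separation describes them and tests nothing. Over all gene models tested, 46.8% had no overlap between the groups, with day 5 lower in 25.5% and higher in 21.3%. Among the 11018 not called, 2154 had no overlap, and 1377 had an unadjusted p below 0.05.

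A gene model that was not called was not thereby shown to be unaltered. Of the 11018, 3897 (35.4%) had a 95% interval of the change that lay wholly within 1.5-fold of day 0. For 7121 (64.6%) the interval reached beyond 1.5-fold, and for 3252 (29.5%) beyond 2-fold. Together with 564 called gene models whose change was small but precise, 4461 (26% of those tested) had an interval within 1.5-fold. Those with an interval wholly beyond 1.5-fold numbered 1478 among the falls and 161 among the rises.

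The shares of reads in the called sets were alike within each group of libraries. The gene models that fell held 40%, 38.8% and 39.7% of the reads in day 0 replicates 1, 2 and 3, and 23.7%, 24.6% and 25% in day 5 replicates 1, 2 and 3. The gene models that rose held 25.6%, 26.2% and 25.6% at day 0 and 39.1%, 39.4% and 39% at day 5. These sets were chosen by the same comparison, so the shares describe them and test nothing. Shares of reads add up to a whole, so a lower share of 1 set is matched by a higher share elsewhere. Without day 5 replicate 1, the gene models that fell held 27.3% of the reads at day 0 and 14.1% at day 5. The second most abundant gene model, described below, was among those then not called. At a mean of 55700 CPM at day 0, it held only part of the difference in share. With scaling by the ERCC control RNAs, under which it was not called either, the shares were 24.1% and 11.6%.

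Most of the gain came from changes of modest size. The 2392 gene models that rose less than 2-fold went from 25.6 ± 0.34% of the reads at day 0 to 38.8 ± 0.21% at day 5, whereas the 143 that rose at least 2-fold went from 0.173 ± 0.0034% to 0.418 ± 0.038% (SD, n = 3). Among the falls, the 1588 of at least 2-fold went from 14.9 ± 0.55% to 5.62 ± 0.034%, and the 434 of at least 4-fold from 3.11 ± 0.11% to 0.369 ± 0.014%. Few gene models made up much of the shift. In CPM, 72 of the 3576 falls held 50% of the summed decrease, and 90 of the 2535 rises held 50% of the summed increase. Abundant gene models weigh most in such sums. The 10 largest falls held 22.6% of the decrease and the 10 largest rises 13.8% of the increase. For comparison, the 10 most abundant gene models held 20.2% of all reads at day 0 and 18.9% at day 5.

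The balance of falls and rises differed between levels. Gene models were split by their mean over all 18 libraries. Those with a mean below 1 CPM could pass the low-count filter mainly through a group in which they were high. Calls in this class were therefore in part fixed by the filter, and nothing is read from them. All 119 falls and 11 rises among its 764 gene models were at least 2-fold, at a median standard error of 0.61. At 5 to 20 CPM, 22.2% of 6314 fell and 11.8% rose. At 20 to 100 CPM rises were the more numerous, with 25.1% of 3674 lower and 29.5% higher. At 100 to 500 CPM, 27.7% of 936 fell and 42% rose, and at 500 CPM and over 31.4% of 328 fell and 44.5% rose. The precision changed along this scale as well, since the median standard error of the log2 change went from 0.35 at 1 to 5 CPM to 0.1 at 500 CPM and over. The part of the standard error in the shares called was not tested.

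Falls of at least 2-fold did not follow this order. They made up 7.73% of the gene models at 5 to 20 CPM and 6.02% at 20 to 100 CPM. The 11.8% at 1 to 5 CPM lies near the limit of the filter and can be raised by it. The share was 10% at 100 to 500 CPM and 19.8% (65 of 328) at 500 CPM and over. Rises of at least 2-fold made up 0.618% at 5 to 20 CPM and 0.381% at 20 to 100 CPM. They made up 0.534% at 100 to 500 CPM and 0.305% at 500 CPM and over. The 1.43% at 1 to 5 CPM has the same limit as the falls there.

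**Figure D2:**
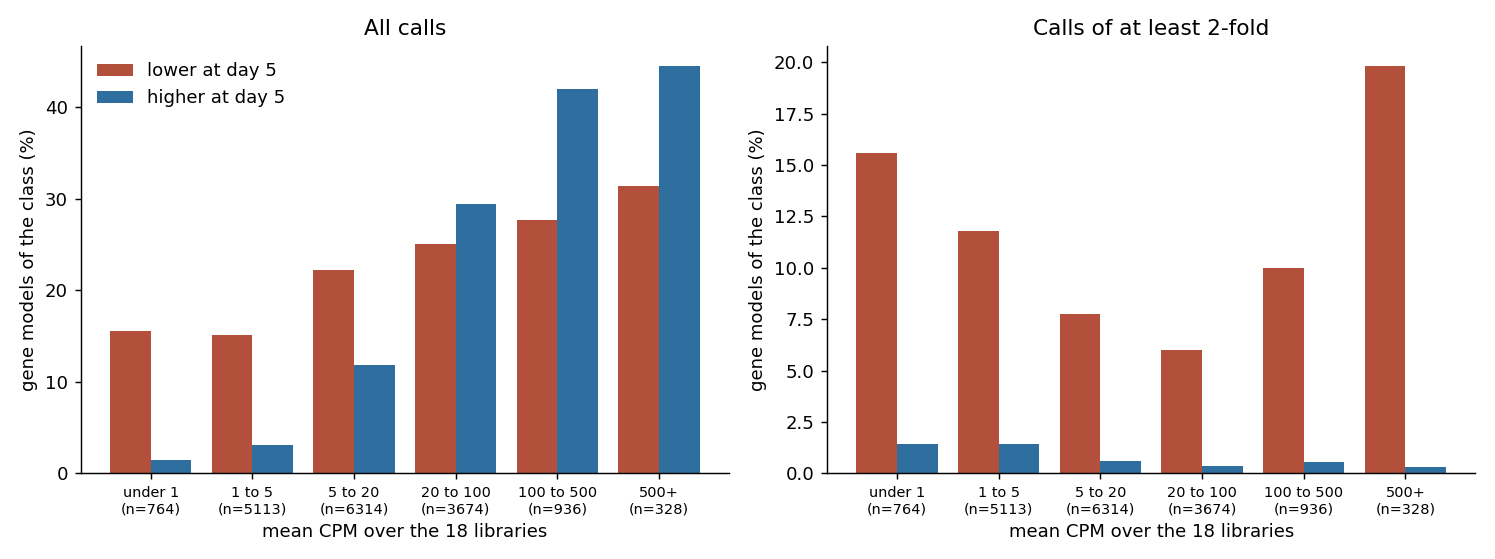
Percentage of gene models called lower (red) and higher (blue) at day 5 in each class of mean level (CPM over the 18 libraries, number of gene models below each class). The left panel holds all calls and the right panel those of at least 2-fold. Rises exceed falls from 20 CPM upward on the left, while on the right falls exceed rises in every class and make up 19.8% of the most abundant one. The class under 1 CPM, and in part that of 1 to 5 CPM, were shaped by the low-count filter.

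The frequent large falls among abundant gene models came from a compact group. Between 500 and 2000 CPM, 275 gene models were tested, and their changes at day 5 formed separate heaps. One lay above day 0, with 47 gene models at a log2 change of 0.4 to 0.6. The other lay at about a 2-fold fall, with 32 gene models between -1.2 and -1 and 21 between -1.4 and -1.2. Between the heaps, 3 gene models lay from -0.8 to -0.6. At 100 to 500 CPM a smaller bump lay at the same place, with 21 of 936 gene models between -1.4 and -1.2, 23 between -1.2 and -1 and 15 between -1 and -0.8. At 20 to 100 CPM none was visible in steps of 0.2. The range of levels and the limits of the group were chosen after these values were seen, so no test is given.

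**Figure D3:**
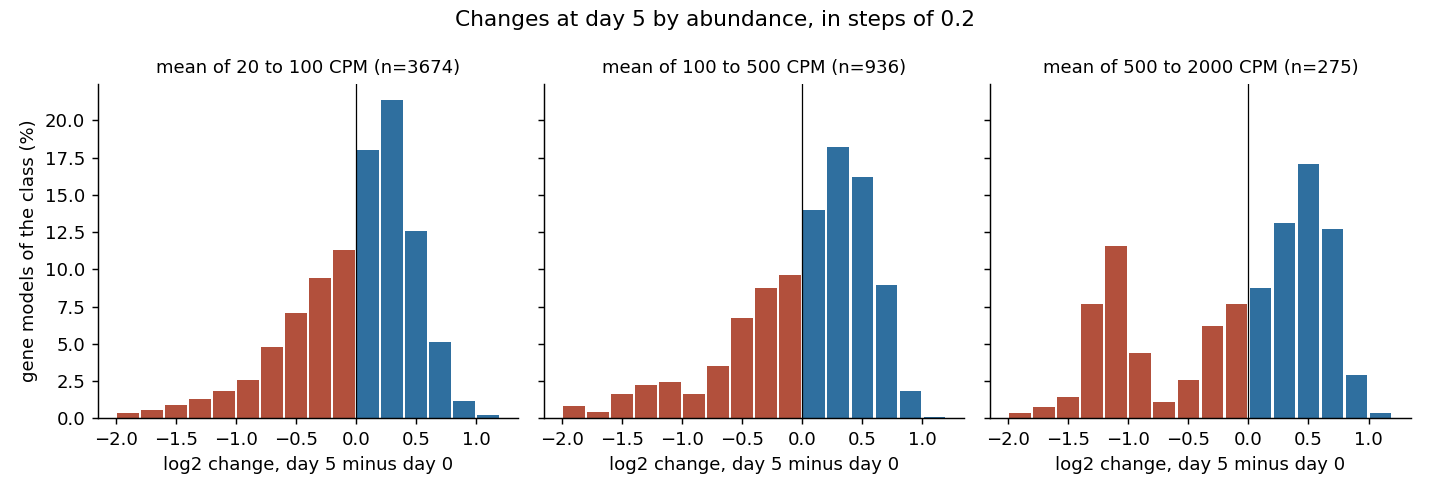
Distribution of the log2 change from day 0 to day 5 (horizontal axis, steps of 0.2, red below 0 and blue above) as a percentage of the gene models in 3 classes of mean level: 20 to 100 CPM, 100 to 500 CPM and 500 to 2000 CPM. The last class shows a second heap that holds 11.6% of its gene models between -1.2 and -1, apart from the main heap above 0.

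Within these limits, 69 gene models had a log2 change from -1.6 to -0.8. These limits used the day 5 change itself, so that all 69 were called lower follows from the choice. The median log2 change was -1.14 with quartiles of -1.23 and -1.06, and the median standard error of a single change was 0.11. Their day 0 levels ran from 690 to 2250 CPM with a median of 1200, and the median at day 5 was 535. They held 8.86%, 7.92% and 8.43% of the reads in day 0 replicates 1, 2 and 3, and 4%, 3.99% and 4.06% in day 5 replicates 1, 2 and 3. The 69 IDs carry 68 different first numbers, and 59 have a first number of their own. Near-identical copies that divide reads between IDs would share a first number if the numbers mark such copies, which the files do not state.

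The same 69 gene models were close together at the other sampling days too. At day 0.5 their median log2 change from day 0 was -0.38 (quartiles -0.43 and -0.35), and at day 1 it was -0.61 (-0.66 and -0.54). Day 3 gave -0.94 (-1.02 and -0.86) and day 7 gave -1.27 (-1.36 and -1.19). All these comparisons share the day 0 libraries, so the values are set side by side and are not independent of each other. The median was lower at each later day, with no single step that held most of the change. The 119 gene models of the same range of levels that rose had a median log2 change of 0.54 at day 5 (0.41 and 0.64) and went from 8.28 ± 0.051% to 12.8 ± 0.25% of the reads (SD, n = 3).

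Among the largest falls were many gene models of low level, which the low-count filter can in part bring about. Of the falls of at least 4-fold, 89 had a mean under 1 CPM over the 18 libraries and 189 lay at 1 to 5 CPM. The 434 falls of at least 4-fold had a median level of 8.09 CPM at day 0 and 0.825 CPM at day 5, and 119 of them averaged at least 20 CPM at day 0. Of the 109 falls of at least 16-fold, 32 averaged at least 20 CPM at day 0, and 52 had at most 3 reads in each day 5 library. The 5 rises of at least 4-fold were at 0.153 to 0.771 CPM at day 0 and at 0.689 to 9.96 CPM at day 5, so their ratios rested on few reads at day 0.

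Some gene models passed below detection at day 5. With at least 10 reads in each day 0 library, 103 of 15575 gene models had at most 3 reads in each day 5 library, and 9 had none at all. A count of 0 in a day 5 library allows a level of up to 0.421 to 0.516 CPM, by counting error only, and the highest day 0 level among the 9 was 9.98 CPM. The opposite case was not found: of 14248 gene models with at least 10 reads in each day 5 library, 0 had at most 3 reads in each day 0 library. The deeper day 0 libraries bear on this, and with all libraries thinned to 1 depth the numbers were 64 and 1, with 6 and 0 for no read at all.

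Sets chosen at day 5 were then followed through the other sampling days. Gene models that fell 1.5- to 2-fold at day 5 (1178) had median log2 changes of -0.33, -0.49, -0.68, -0.77 and -0.83 on days 0.5, 1, 3, 5 and 7. Those that fell 2- to 4-fold (1154) stood at -0.54, -0.77, -1.08, -1.28 and -1.31 on the same days. For both sets the medians at days 5 and 7 lay within 0.1 of each other. The day 5 value is the one by which these sets were chosen, and all days share the day 0 libraries.

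Strong falls of well-detected gene models were less alike. The 119 that fell at least 4-fold at day 5 from at least 20 CPM had a median log2 change of -0.78 at day 0.5 (quartiles -1.44 and 0.01) and -1.17 at day 1 (-2.47 and 0.06). The medians of days 3, 5 and 7 were -2.08 (-3.86 and -0.97), -3.04 (-4.22 and -2.34) and -3.95 (-4.81 and -2.74). At day 1 the set ranged, by its quartiles, from more than a 4-fold fall to no fall. Its median was lower at day 7 than at day 5, whereas those of the smaller falls were nearly level between these days. These sets are unlike in level, since the smaller falls had no limit of 20 CPM. Without that limit, the 434 falls of at least 4-fold had medians of -2.93 at day 5 and -3.3 at day 7. Their upper quartiles were -2.34 and -2.25. The part of level in this difference was not tested.

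The medians of the rises grew by small steps up to day 5. The 2535 gene models that rose had median log2 changes of 0.19, 0.28, 0.42, 0.53 and 0.54 on days 0.5, 1, 3, 5 and 7. The 24 that rose at least 2-fold to at least 20 CPM stood at 0.47, 0.75, 0.99, 1.24 and 1.4. Several of these 24 carry the same first ID number, as do further IDs among the 143 rises of at least 2-fold. Such IDs may share reads, so the 24 need not be separate cases and their medians may lean on this block. For comparison, gene models not called at day 5 had medians between 0.01 and 0.08 on these days.

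**Figure D4:**
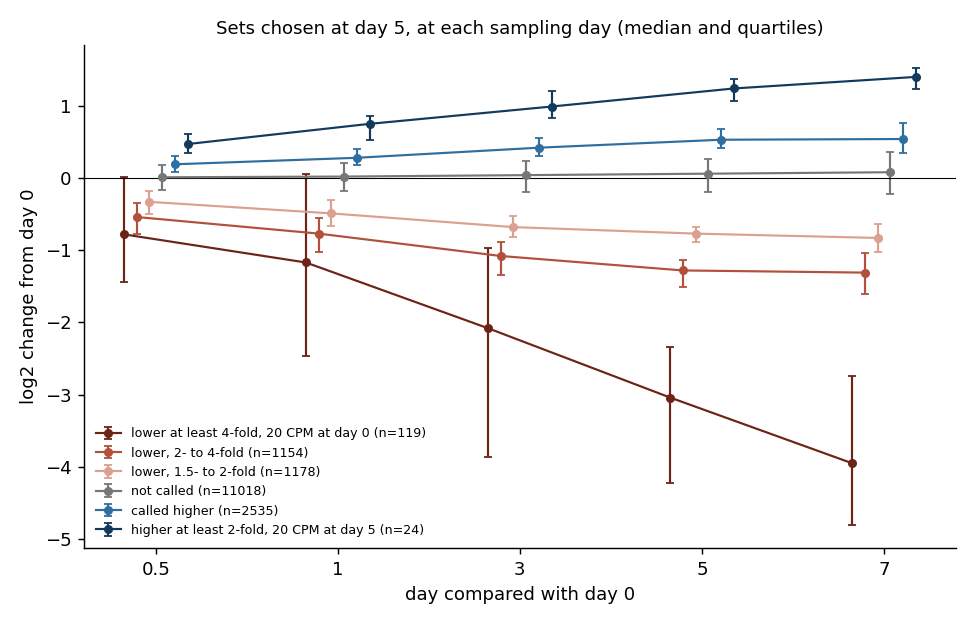
Median log2 change from day 0 (vertical axis; bars are quartiles over gene models) at each sampling day for 6 sets chosen by their day 5 value, with the number of gene models in the legend. The 119 strong falls have the widest quartiles and reach a median of -3.95 at day 7, while the sets of smaller falls and the 2535 rises lie within 0.1 of their day 5 median at day 7. All points share the day 0 libraries.

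A total of 4 gene models are given by ID, 2 lower and 2 higher. They were taken from 1219 lower and 1178 higher gene models that passed the test, averaged at least 20 CPM in the higher group, had no overlap between the groups, and had a first ID number carried by no other ID. In each direction 1 had the largest change by ratio and 1 the largest by amount. What these genes encode is not given in the files.

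DjGI017451-001 had the largest fall by ratio. It stood at 116, 130 and 169 CPM in day 0 replicates 1, 2 and 3 and at 0.407, 1.02 and 1.35 CPM in day 5 replicates 1, 2 and 3. All day 5 libraries were far below all day 0 libraries, and they held 3, 6 and 10 reads of it, against 1225 to 1672 at day 0. The log2 change was -7.2 ± 0.37 (SE; edgeR adjusted p = 5.25e-15), a fitted 147-fold difference. This SE is likely too small for a fall to so few reads. DjGI017451-001 averaged 114 ± 42, 71 ± 19.9, 2.43 ± 0.861 and 1.71 ± 1.05 CPM on days 0.5, 1, 3 and 7 (SD, n = 3 each), so on the log2 scale most of its drop lay between days 1 and 3. From day 3 to day 5 its log2 change was -1.36 ± 0.66 (SE; edgeR adjusted p = 0.534), and from day 5 to day 7 it was 0.8 ± 0.78 (SE; edgeR adjusted p = 0.69).

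DjGI009962-001 had the largest rise by ratio. It stood at 8.21, 5.04 and 9.23 CPM in day 0 replicates 1, 2 and 3 and at 17.9, 28 and 21.5 CPM in day 5 replicates 1, 2 and 3. The lowest day 5 library was above the highest day 0 library. The log2 change was 1.61 ± 0.2 (SE; edgeR adjusted p = 2.77e-07), a 3.05-fold difference. The level of DjGI009962-001 was highest at day 3, at 29.9 ± 2.71 CPM (SD, n = 3), but the log2 change of -0.42 ± 0.18 from day 3 to day 5 did not pass the test (SE; edgeR adjusted p = 0.433), nor did that of -0.24 ± 0.19 from day 5 to day 7 (SE; edgeR adjusted p = 0.615).

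DjGI017786-001, the second most abundant gene model at day 0, had the largest fall by amount. It stood at 54000, 53400 and 59600 CPM in day 0 replicates 1, 2 and 3 and at 36900, 45100 and 47800 CPM in day 5 replicates 1, 2 and 3. The groups did not overlap, but day 5 replicate 1 lay well below the other day 5 libraries. The log2 change was -0.36 ± 0.11 (SE; edgeR adjusted p = 0.0116), with a 95% interval from -0.59 to -0.13. The call did not hold without day 5 replicate 1, where the log2 change was -0.26 (edgeR adjusted p = 0.104), or with scaling by the ERCC control RNAs, where it was -0.3 (edgeR adjusted p = 0.0684).

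DjGI017779-001, ninth in level at day 0, had the largest rise by amount. It stood at 7480, 6680 and 7450 CPM in day 0 replicates 1, 2 and 3 and at 10100, 9940 and 10700 CPM in day 5 replicates 1, 2 and 3. The day 5 libraries lay close together and all above day 0. The log2 change was 0.51 ± 0.08 (SE; edgeR adjusted p = 9.02e-06), with a 95% interval from 0.34 to 0.67. The rise of DjGI017779-001 was called at every sampling day, with a log2 change of 0.26 at day 0.5 (edgeR adjusted p = 0.0339) and 0.43 at day 7 (edgeR adjusted p = 7.24e-05). Its levels at days 3 and 7 did not differ from day 5 by the test (edgeR adjusted p = 0.955 and 0.69).

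**Figure D5:**
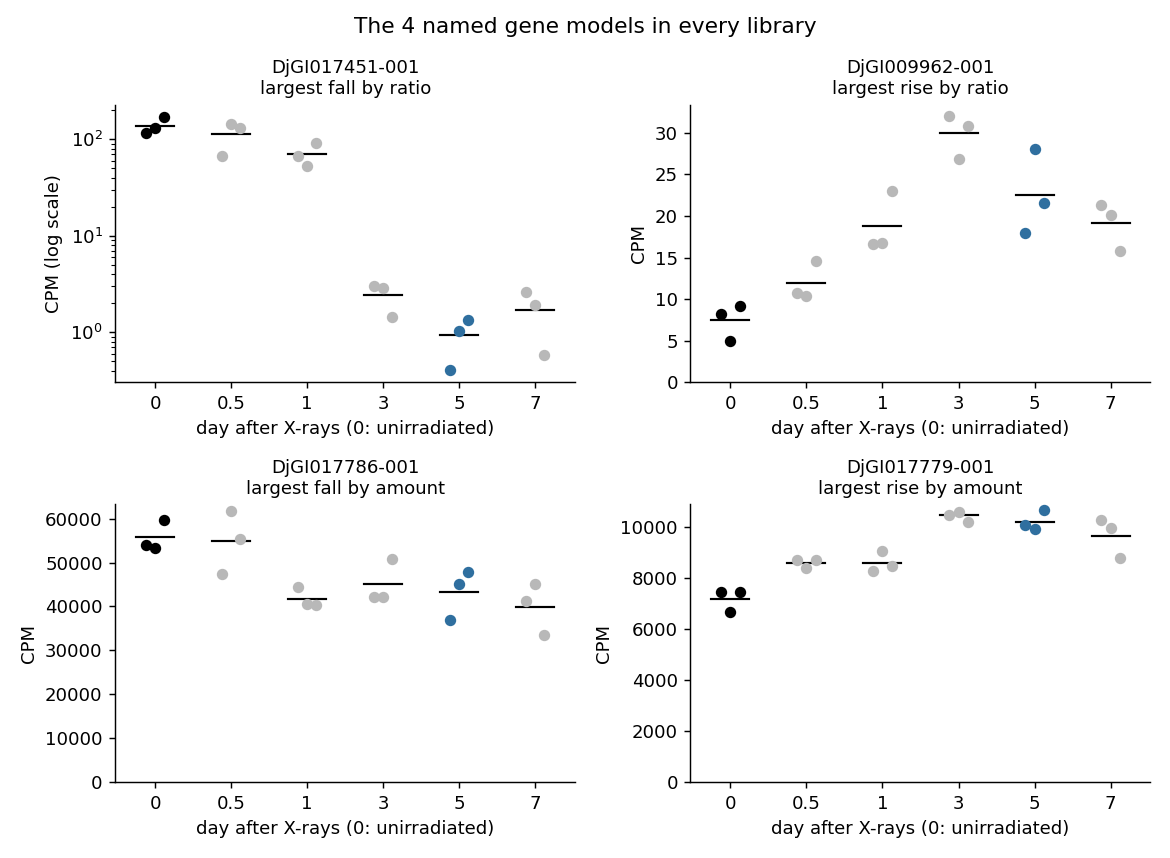
CPM of the 4 named gene models in all 18 libraries by sampling day, with 1 point per library, black at day 0 and blue at day 5, and a line at the mean of each group. The panel of DjGI017451-001 has a log axis and the others start at 0. The day 5 points of DjGI017451-001 lie at 0.407 to 1.35 CPM, against 116 to 169 at day 0, and those of DjGI009962-001 at 17.9 to 28, against 5.04 to 9.23.

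The share called also varied with how many IDs carry a first number. Of 11025 tested gene models whose first number is their own, 38.9% were called (22.9% lower, 16% higher). With 2 IDs per first number 33.4% of 2833 were called, with 3 to 4 IDs 28.5% of 1511, and with 5 or more 25.4% of 1760. Their median level fell in the same order, from 10.6 to 7.92, 6.87 and 5.62 CPM, and its part in these shares was not tested. IDs under 1 first number seldom went opposite ways: of 540 first numbers with at least 2 called IDs, 315 had only falls, 212 had only rises and 13 had both. IDs that share reads would move together, and their values are uncertain.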

How the data were processed

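Lasy-Seq, a 3' mRNA sequencing method with pooled indexed samples, was used on whole-body RNA of 18 libraries. The authors deposited a table of estimated counts without normalization, 1 row per gene model. Their tools were fastp 0.21.0, BWA 0.7.17-r1188 and Salmon, per the submitters' processing notes, without roles. The sources used here name neither the reference nor the origin of the gene models. A second deposited table lists total counts, rows above 0 and sampling day, and matched all 18 libraries. ERCC rows (92, 0.004% of counts) were left out. Non-whole values (38, in 34 gene models) were rounded.

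Low counts were removed with edgeR's default filter by group (minimum 10, total 15), leaving 17129 of 25566 gene models. edgeR 4.0.16 in R 4.3.3 was fitted by quasi-likelihood over all 18 libraries with 1 mean per group, after TMM scaling (factors 0.94 to 1.13). Tests were two-sided with a threshold of 0.05 on the Benjamini-Hochberg adjusted p. The SE is the change divided by the square root of F, an approximation that is too small for falls to few reads. Intervals are the change plus and minus the SE times the t quantile for 95%. The design text calls replicates biological. No 2 replicates were near copies (chi-square per degree of freedom 3.67 to 5.21, with sampling noise alone at about 1). Gene models, sets and rules were chosen with earlier results of these data known. The named gene models followed a rule on level (at least 20 CPM), overlap, unique first number, and largest ratio or amount. Lists of marker genes could not be matched to the IDs and were not tested.

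Counts were simulated for the contrast of days 5 and 0 (16689 gene models), with few changes, falls and rises alike in number. The simulated spread depended on level alone. Of 1.5-fold changes the fit recovered 14.7% under 20 CPM and 76.2% at 20 CPM and over (n = 75 and 21). Of 3-fold changes it recovered 91.2% and 100% (n = 68 and 31). False calls made up 4.76% of 126 calls. In the data 35.7% of gene models were called and large changes were mostly falls, so these rates need not hold there. Alternatives were DESeq2 1.42.0, other scalings (RLE, upper quartile, library totals, ERCC), other filters, thinning, removal of the 10 most abundant gene models, summing over first ID numbers, the replicate block, only the 6 libraries, and leaving out each library.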

Additional observations from a re-analysis of the deposited data

How the results depend on the processing

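The counts of gene models called, of falls and of rises stayed within 1.5 times their main values under all 18 alternatives run. Leaving out 1 library gave 5164 to 5423 calls (3098 to 3387 falls, 2017 to 2171 rises), 1480 to 1625 falls and 141 to 171 rises of at least 2-fold, and 3619 to 3980 gene models with an interval within 1.5-fold. The last was 2899 with ERCC scaling and 2959 with thinned libraries, tried after seeing the data. Rises of at least 2-fold numbered 217 with library totals and 87 with at least 30 reads in 3 libraries. Those of at least 4-fold ranged from 0 with that filter to 26 with no filter. Calls numbered 5823 with DESeq2, 4935 with ERCC scaling and 4578 with thinned libraries. The share of falls was 49.5% to 62.7%. The causes were not tested. Of the 3576 falls, 2598 were called in all 6 fits with a library left out, and 2110 also under all 11 other settings with the same IDs. For the 2535 rises these numbers were 1476 and 1316. A gene model that a setting did not test counts here as not called. Some settings tested fewer gene models, such as 13992 with at least 30 reads in 3 libraries. Replicate numbers did not pair the libraries: correlations of same-numbered deviations between days 0 and 5 were 0, 0.03 and 0. The replicate block gave 6106 calls (3570 falls, 2536 rises). Of the named gene models, only DjGI017786-001 lost its call. Depth limits the low levels most. ERCC totals of 239 to 487 reads per compared library make that scaling imprecise.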
